A study of Drosophila melanogaster with 24 samples.

Results

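Transcripts of 8 immune peptide genes were followed after head trauma in the fly: Drosomycin (Drs), Metchnikowin (Mtk), Defensin (Def), Drosocin (Dro) and the immune-induced molecules IM1, IM2, IM3 and IM4. They are the rows of the count table that carry these symbols, 8 of 16995 genes, and all 8 were found. The data come from 24 libraries, each made from a single brain of an adult mated w1118 fly aged 10 to 14 days. w1118 is a white-eyed laboratory strain, and every group shares it. The 8 groups of 3 libraries are uninjured controls and flies taken 1, 2 or 4 hr after traumatic brain injury (TBI), for each of the labels female and male. The injury was 1 strike of a high impact trauma device with its arm set at 45 degrees, which throws the flies against the wall of a vial and so reaches the whole body, not the head alone.

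Antimicrobial peptides are the secreted end products of fly humoral immunity. The Toll pathway, which is activated by fungi and Gram-positive bacteria, and the Imd pathway, which is activated by Gram-negative bacteria, each end in transcription factors of the NF-kB family that switch these genes on. Most of the peptide in the blood of an infected fly comes from the fat body, the counterpart of liver and adipose tissue, part of which lies in the head around the brain. Drs is antifungal and a standard readout of Toll. Dro and Def act on bacteria, and Mtk on bacteria and fungi. IM1, IM2 and IM3 are now named BomS1, BomS2 and BomS3, short Bomanins that act downstream of Toll, and IM4 is now named Daisho 1 (Dso1), a Toll-dependent antifungal peptide.

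Current names and chromosome arms were taken from RefSeq, and neighbours and overlaps from an Ensembl gene annotation. Drs lies on chromosome arm 3L and the other 7 genes lie on 2R. IM2 and IM3 are direct neighbours within the Bomanin cluster. IM4 lies next to Dso2, which the count table calls IM14. The Bomanins resemble each other, and reads shared by near-identical copies could be split between them. The span of Mtk overlaps that of Stacl on the same strand and the span of Def overlaps that of magu on the opposite strand, so reads of Def and magu cannot be told apart without the strand setting of the counting. That setting was not stated in the material at hand.

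Depth differed widely between libraries, from 46943 to 1769669 counted reads, with group medians from 219707 (female-labelled, 1 hr) to 1411248 (female-labelled, 2 hr). Levels below are CPM, counts rescaled to a common library total after adjusting the libraries by TMM, a factor that corrects for the share taken by a few very abundant genes. The method, QuantSeq 3′, reads the ends of polyadenylated transcripts, and in such bulk RNA fewer cells of a type and less RNA per cell cannot be told apart. The sex labels were checked with roX1, an RNA that coats the X chromosome in males. It was at 706 to 1012 CPM in the 12 male-labelled libraries and at 714 to 1246 CPM in 10 of the 12 female-labelled libraries, against the label. The exceptions had 6.13 CPM, in replicate 2 of the female-labelled 2 hr group, and 78.8 CPM, in replicate 2 of the female-labelled 4 hr group. Sex is therefore given as the label only, and results are also given without these 2 libraries.

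In uninjured brains reads of all 8 transcripts were found under both labels. Drs was at 455, 287 and 367 CPM in replicates 1, 2 and 3 of the female-labelled controls and at 376, 446 and 544 CPM in the male-labelled ones. IM3 was at 695, 570.0 and 612 CPM in the female-labelled and 832, 1705 and 957 CPM in the male-labelled controls, so that each female-labelled library lay below each male-labelled one. Def was near the limit of detection, with 4 reads over the 3 female-labelled controls and 6 over the male-labelled ones. The 7 members that could be tested between the labels differed by log2 fold changes (log2FC) of -1.20 (IM4) to 0.25 (Mtk), and none was called by edgeR's quasi-likelihood test over 5462 genes (0 of 7, where 0% of all genes were called at an adjusted p under 0.05 with an absolute log2FC over 1). At an unadjusted p under 0.05 with a log2FC beyond 1, 0 of 7 were higher and 0 of 7 lower, against 0.476% and 1.48% of all genes. IM3 was 1 of 7 members with groups that did not overlap, lower in the female-labelled controls, as were 3.84% of all genes.

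**Figure D1:**
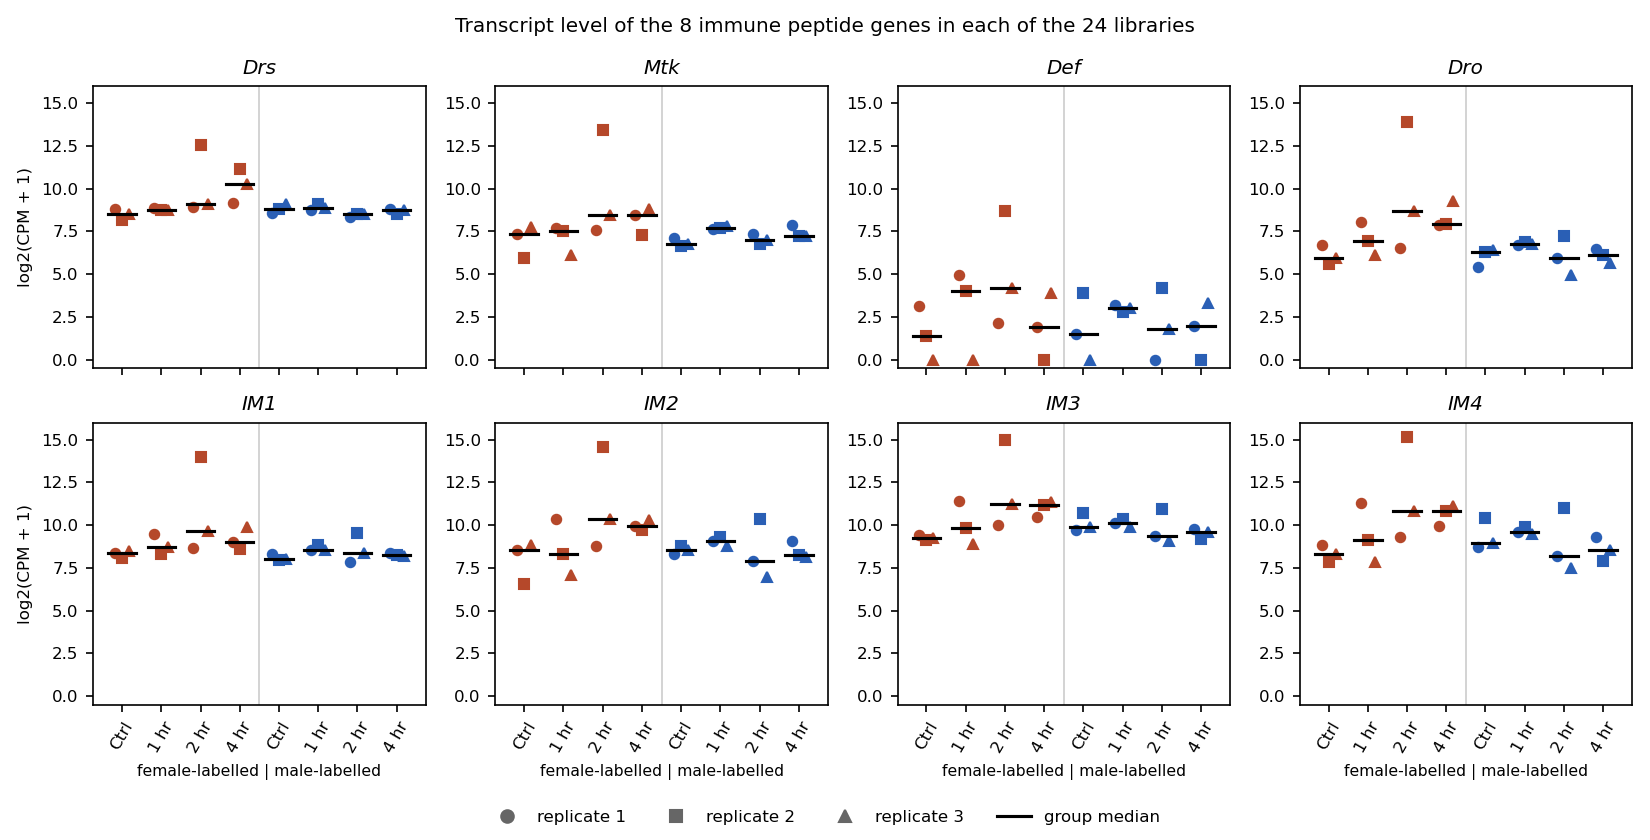
Level of each of the 8 immune peptide transcripts in all 24 libraries (log2 of CPM + 1, 1 panel per gene), by sex label and time after injury, where each symbol is 1 library, its shape is the replicate number and lines are group medians. The single female-labelled 2 hr library at the top of every panel is replicate 2, and all 3 female-labelled 4 hr libraries lie above the female-labelled controls for 6 of 8 members.

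At 2 hr in the female-labelled group every member had its highest value of the 24 libraries, each time in replicate 2. Dro, a glycosylated antibacterial peptide, was at 92.6, 15073 and 413 CPM in the 3 injured libraries and at 102, 48.2 and 61.2 CPM in the controls. Mtk was at 189, 11079 and 344 CPM after injury and 161, 61.1 and 214 CPM in controls. Replicate 2 stood far above the others, replicate 3 was above every control for both genes, and replicate 1 lay within the control range.

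The antifungal Drs was at 482, 6039 and 542 CPM at 2 hr, so that each injured library was above the highest control at 455 CPM. Def was at 3.43, 411 and 17.2 CPM, against 7.85, 1.61 and 0 CPM in controls. Pooled over the groups, 427 reads of Def stood against 4, a ratio of 45.2 with a 95% counting interval of 17.5 to 167, which covers counting error only. Replicate 2 gave 402 of the 427 reads.

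IM1 was at 408, 15932 and 817 CPM at 2 hr, against 326, 265 and 352 CPM in controls. IM2 was at 434, 24749 and 1294 CPM, against 381, 94.1 and 459 CPM. For both genes replicates 2 and 3 were above every control, and for IM1 replicate 1 was above them too. IM3 was at 1049.8, 31649 and 2371 CPM, and IM4 at 638, 36896 and 1785 CPM, where the highest controls were 695 and 463 CPM. All 3 injured libraries therefore exceeded all 3 controls for IM3 and IM4.

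In edgeR's quasi-likelihood test on the 12 female-labelled libraries, none of the 8 members was called at 2 hr (0 of 8), as for 0% of the 5918 genes tested. Without adjustment, 8 of 8 were higher at a p under 0.05 with a log2FC over 1, against 6.93% of all genes. Def, with 4 reads over the controls and 427 at 2 hr, could be tested only because of injured libraries. Its place in this count is therefore no independent support. The log2FC was 6.10 ± 1.43 (SE) for Dro, 5.30 ± 1.93 for Def, 5.19 ± 1.27 for IM4, 4.76 ± 1.26 for IM2, 4.70 ± 1.23 for Mtk, 4.13 ± 1.02 for IM3, 4.10 ± 1.03 for IM1 and 2.59 ± 0.817 for Drs, n = 3 against 3. By edgeR's quasi-likelihood test with Benjamini-Hochberg adjustment the adjusted p was 0.481 for Dro, IM1 to IM4 and Mtk, 0.520 for Drs and 0.545 for Def. The median log2FC over the members was 4.73, and 0.00 over all genes. All injured libraries lay above all controls for 4 of 8 members (Drs, IM1, IM3 and IM4), and for 9.61% of all genes.

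Without replicate 2 of the 2 hr group the values were smaller but kept their sign. The log2FC then ranged from 0.48 (Drs) to 1.86 (Dro and IM4), with 1.46 for IM3, 1.53 for IM2, 0.98 for IM1 and 0.96 for Mtk. Def had 1.60 ± 1.86 (SE). At an unadjusted p under 0.05 with a log2FC over 1 there were 3 of 8 members (Dro, IM3 and IM4), against 1.77% of all genes. Conversely, without replicate 1, which lay nearest the controls, 6 members (Dro, IM1 to IM4 and Mtk) passed the adjusted threshold, as did 0.288% of all genes. In the medians of the groups, IM4 was at 5.56 times and Dro at 6.75 times its control median, and Drs at 1.48 times. For each of these genes the 2 hr median is the value of replicate 3, which was higher than replicate 1. These ratios therefore rest on 1 injured library.

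**Figure D2:**
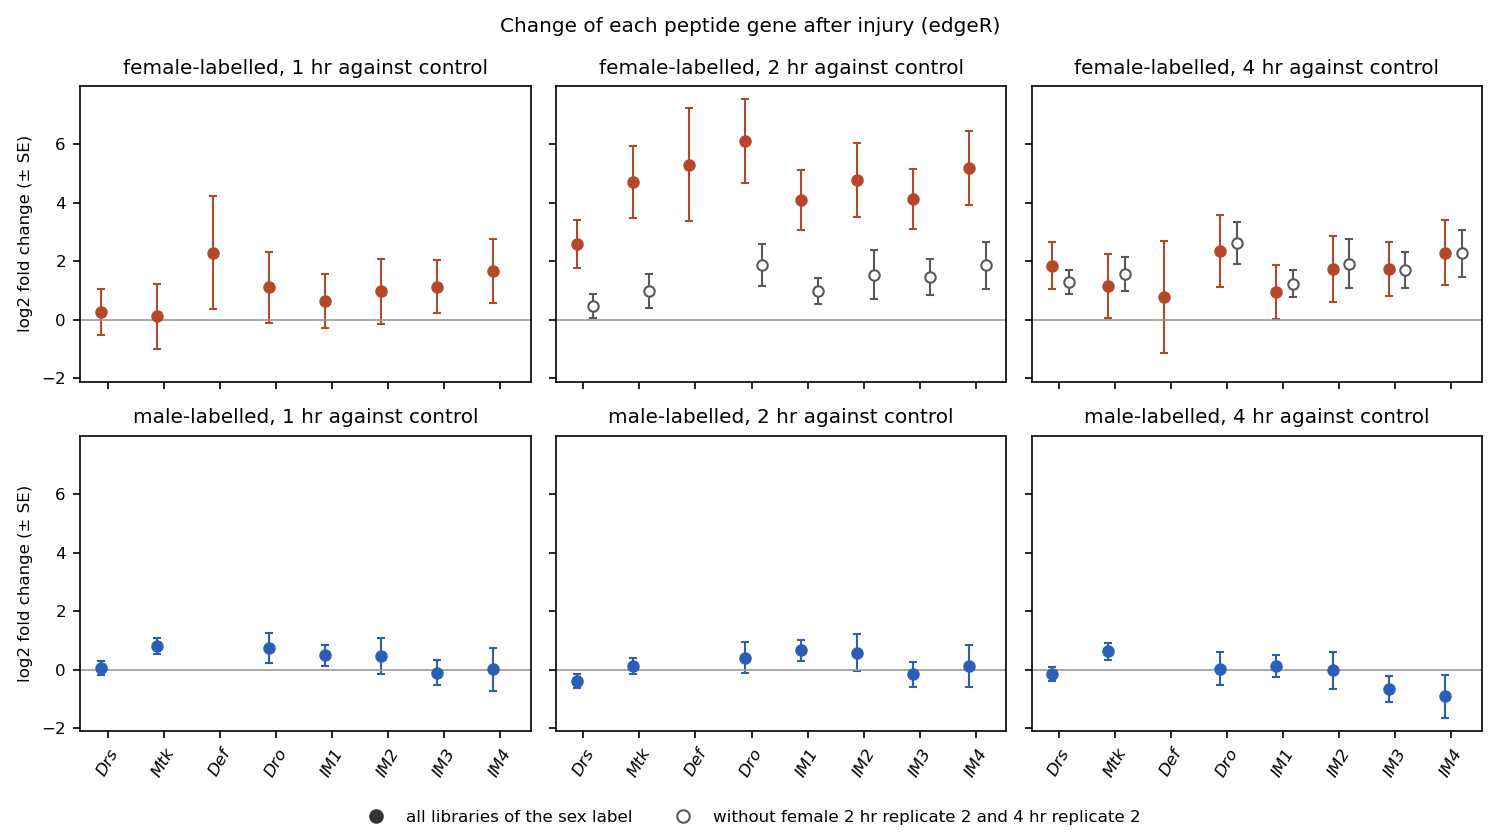
Log2 fold change of each member against the control of the same sex label at 1, 2 and 4 hr (points, edgeR; bars, 1 SE), with open points for the female-labelled 2 and 4 hr values without replicate 2 of both groups. Female-labelled values reach 6.10 for Dro at 2 hr, and 1.88 once those libraries are left out, while male-labelled values lie between -0.91 and 0.82.

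At 4 hr the female-labelled libraries were more alike, and the difference from the controls was seen in all 3 for most members. Drs was at 565, 2262 and 1226 CPM, IM3 at 1423, 2336 and 2609 CPM and IM4 at 997, 1793 and 2239.7 CPM. For these 3 genes every injured library was above every control. Dro was at 231, 247 and 619 CPM, above its highest control of 102 CPM in each library, and IM2 was at 986, 834 and 1285 CPM, above 459 CPM. IM1, at 521, 386 and 931 CPM, also did not overlap its controls, whereas Mtk (348, 158 and 442 CPM) did. Def was at 2.79, 0 and 13.99 CPM, a range that includes its controls.

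For Dro, Drs and IM1 to IM4 (6 of 8) there was therefore no overlap with the controls at 4 hr, against 7.98% of all genes. The test called 0 of 8 (0% of all genes). Drs alone passed an unadjusted p under 0.05 with a log2FC over 1 (1 of 8, against 4.78% of all genes), at 1.85 ± 0.796 (SE). Its adjusted p was 0.929 by edgeR's quasi-likelihood test. The other values were 2.35 (Dro), 2.29 (IM4), 1.75 (IM2), 1.74 (IM3), 1.16 (Mtk), 0.95 (IM1) and 0.78 (Def). The 2 libraries with low roX1, replicate 2 at 2 hr and at 4 hr, were also left out together. All 7 members then tested were higher at an unadjusted p under 0.05 with a log2FC of 1.23 to 2.63, against 2.50% of all genes. None was called after adjustment. Without replicate 2 at 4 hr alone, 0 of 8 passed that unadjusted threshold, against 1.496% of all genes, though the log2FC was 1.21 to 2.59. The 2 hr library is not in this comparison and enters it only through the shared fit.

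At 1 hr the female-labelled group did not separate from its controls for any member (0 of 8, against 3.62% of all genes). IM4 was at 2467, 555 and 225 CPM and IM3 at 2779.8, 893 and 475 CPM, where replicate 1 was far above the controls, replicate 2 just above them and replicate 3 below the lowest of them. IM2 was at 1335, 323 and 136 CPM. Replicate 1 was also the library with the highest Yp1, a yolk protein transcript of the female fat body, at 22007 CPM. The log2FC ran from 0.12 (Mtk) to 2.30 (Def), and 0 of 8 members passed even an unadjusted p under 0.05 with a log2FC over 1 (1.39% of all genes did) or an adjusted one (0%). Without replicate 1 the members' median log2FC went from 1.05 to 0.19, and over all genes it was 0.05 with every library.

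Taking all 9 injured female-labelled libraries against the 3 controls, 6 of 8 members (Dro, Drs and IM1 to IM4) were higher at an unadjusted p under 0.05, against 4.43% of all genes. Their log2FC lay between 1.56 (Drs) and 3.19 (Dro), with an adjusted p of 0.939 by edgeR's quasi-likelihood test, and 0 of 8 were called (0% of all genes). Without replicate 2 of the control group only IM4 of the 8 passed the unadjusted threshold, against 1.66% of all genes, and without replicate 2 of the 2 hr group 4 did (Dro, IM2, IM3 and IM4), against 3.44%.

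In the male-labelled libraries the spread differed between the members, from 1.69-fold between the highest and the lowest library for Drs and 2.38-fold for Mtk to 10.4-fold for IM2 and 11.6-fold for IM4. Drs was at 432, 547 and 464 CPM at 1 hr, 324, 366 and 370 CPM at 2 hr and 445, 371 and 429 CPM at 4 hr, against 376, 446 and 544 CPM in controls. The 12 female-labelled libraries differed 21.0-fold for Drs, their highest values being those of the 2 low-roX1 libraries. The 2 hr values were the lowest for Drs, and all 3 lay below every control (1 of 7 members, against 1.86% of all genes), at a log2FC of -0.38 ± 0.236 (SE).

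Mtk lay above its male-labelled controls at 1 hr and 4 hr, by less than the log2FC of 1 that a call needs. It was at 199.9, 207 and 221 CPM at 1 hr, against 137, 99.6 and 106 CPM in controls, and at 162, 106 and 127 CPM at 2 hr. At 4 hr it was at 237, 152 and 148 CPM. The groups did not overlap at 1 hr and at 4 hr. Its log2FC was 0.82 ± 0.275 (SE) at 1 hr, with an unadjusted p of 0.00954 and an adjusted p of 0.999 by edgeR's quasi-likelihood test, and 0.63 at 4 hr. Dro and IM1 also lay above every control at 1 hr (3 of 7 members, against 6.30% of all genes), Dro at 103, 117 and 108 CPM against 41.4, 77.5 and 82.7 CPM, and IM1 at 367, 456 and 368 CPM against 313, 249 and 260.0 CPM. At 4 hr Mtk alone did so (1 of 7, against 4.05% of all genes).

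A single male-labelled library at 2 hr, replicate 2, carried more of the IM transcripts than the others. IM4 was at 289, 2065 and 178 CPM at 2 hr and at 424, 1386 and 496 CPM in controls, where replicate 2 was again the highest. IM2 was at 236, 1293 and 124.3 CPM at 2 hr. In both groups replicates 1 and 3 lay well below replicate 2 for IM4, so the groups overlapped. Without replicate 2 of the 2 hr group, 3 of 7 members (IM2, IM3 and IM4) were lower at an unadjusted p under 0.05 with a log2FC under -1, against 6.09% of all genes. With that library 0 of 7 were, against 0.671%. The first of these fits kept control replicate 2, the highest control for IM2, IM3 and IM4. Same-numbered libraries of these 2 groups deviated together, and the test did not pair them. No member was called at 1, 2 or 4 hr or over all times (0 of 7 in each, with 0% of the 4474 genes tested), and none passed an unadjusted p under 0.05 with a log2FC over 1 (0 of 7 in each, against 0.581%, 1.10%, 0.380% and 0.514% of all genes). The members' median log2FC was 0.46 at 1 hr, 0.14 at 2 hr and -0.02 at 4 hr. Def had 16, 23 and 6 reads at 1, 2 and 4 hr, too few to be tested.

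Whether the change after injury differed between the labels was tested as an interaction over all 24 libraries. At 2 hr the difference was 3.03 (Drs) to 5.84 (Dro, SE 1.53) on the log2 scale, larger in the female-labelled group for 7 of 7 members. All 7 passed an unadjusted p under 0.05 (4.91% of all genes did) and 0 passed after adjustment (0%), with an adjusted p of 0.613 for IM3 by edgeR's quasi-likelihood test. Without both low-roX1 libraries 0 of 7 passed even the unadjusted threshold, against 2.14% of all genes, and the members' median difference went from 4.37 to 0.97. At 4 hr 3 of 7 members (Drs, IM3 and IM4) passed the unadjusted threshold, against 5.68% of all genes, and without those libraries 4 of 7 did (Dro, Drs, IM3 and IM4), against 4.62%, with a median difference of 1.93. At 1 hr none passed (0 of 7, against 1.23% of all genes). No member was called after adjustment at 1 or 4 hr (0 of 7, and 0% of all genes).

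The members did not keep their proportions in the library where they were highest. Together they took 9.08% of all reads in replicate 2 of the female-labelled 2 hr group (138714 of 1527109 reads, 95% Wilson interval 9.04 to 9.13%, for counting error only). In the other 23 libraries they took 0.162 to 0.799%, with a median of 0.334%. Each member was highest in that library, but by very different factors over the median of the other 23: 163 for Dro, 119.8 for Def, 68.4 for Mtk, 58.8 for IM4, 57.0 for IM2, 45.3 for IM1, 33.1 for IM3 and 13.6 for Drs.

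Drs and Dro marked the ends of this range. Dro made up 10.6% of the members' reads there and 1.69 to 6.61% in the 22 libraries with neither low-roX1 library. Drs made up 4.26%, below its range of 5.48 to 23.7% in those 22. The other low-roX1 library, replicate 2 at 4 hr, differed from the 22 in Drs, which was 28.2% of the members' reads and above that range, and in IM1, which was 4.82% and below its range of 5.65 to 23.2%. Dro, at 3.08%, was near its median of 3.01%, and Mtk, at 1.97%, was within its range of 1.59 to 8.97%. In that library Drs was at 5.15 times the median of the 22 and ranked second of 24, while Mtk ranked 15th and Def had no read.

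**Figure D3:**
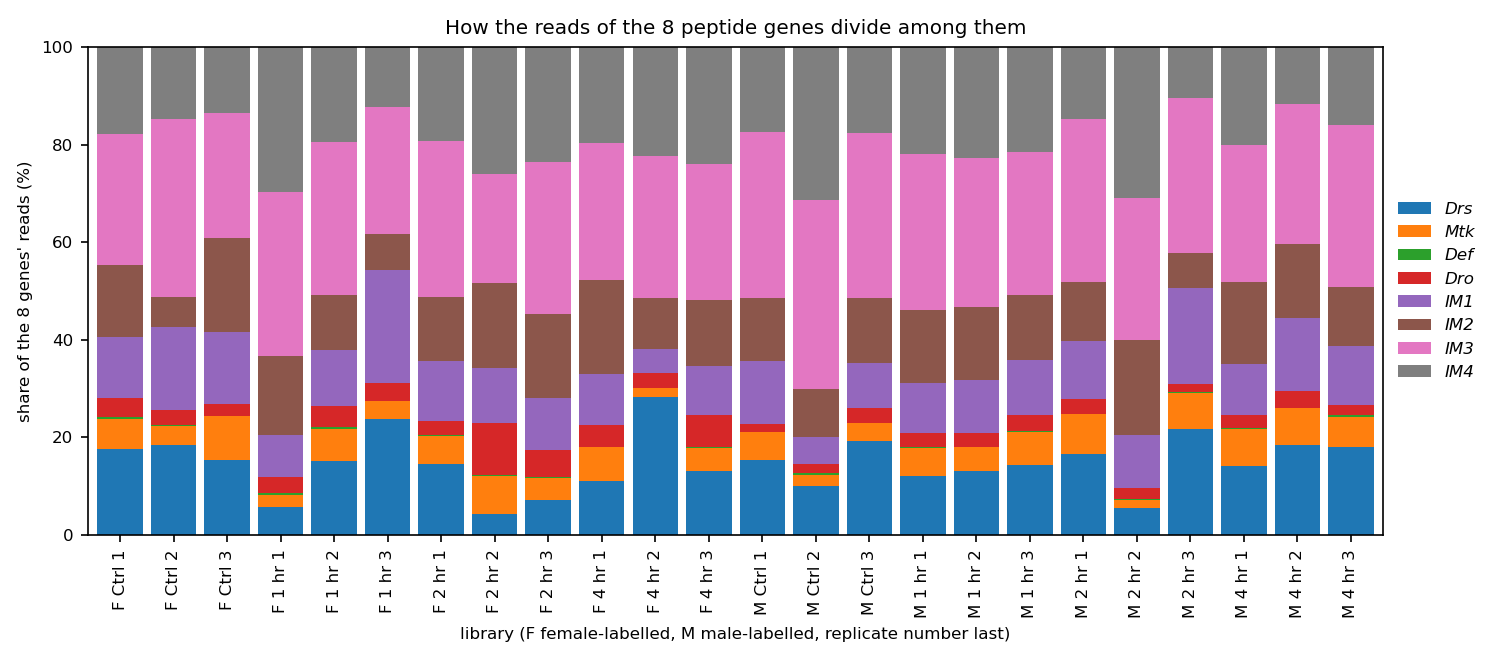
Share of each member in the summed reads of the 8 genes (percent), with 1 bar per library. Drs holds 28.2% in replicate 2 of the female-labelled 4 hr group and 4.26% in replicate 2 of the 2 hr group, where Dro holds 10.6%.

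Among the members IM2, IM3 and IM4 followed each other most closely. Over 24 libraries IM3 and IM4 had a Spearman correlation of 0.984, and 0.982 without replicate 2 of the female-labelled 2 hr group, though IM3 and IM4 are not neighbours. IM2 had 0.932 with IM4 and 0.903 with IM3. Dro followed, with 0.864 to 0.889 to these 3, while IM1 had 0.627 to 0.762 with them and 0.767 with Dro. The lowest was 0.287, between Drs and Def, and Def had few reads. These are descriptions across libraries that share depth and make-up, with no test. Outside the members, the genes most like their mean level were ND-MLRQ (Spearman correlation 0.939), RpL4 (0.932), RpL9 (0.929), IM14 (0.923) and CG17737 (0.921) of 5455 ranked. RpL4 and RpL9 encode ribosomal proteins, ND-MLRQ a subunit of mitochondrial complex I. For Drs alone they were Rpb8 (0.786), a subunit of the RNA polymerases, CecA2 (0.754), a cecropin, and Nmdmc (0.753), an enzyme of folate metabolism.

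The members' summed level varied inversely with that of neuron transcripts. A list of 12 neuron markers summed to 684 CPM in replicate 2 of the female-labelled 2 hr group and 1952 CPM in replicate 2 at 4 hr, against a median of 5585 CPM over all libraries. Some other libraries with high IM transcripts also had low neuron sums: replicate 1 of the female-labelled 1 hr group at 3553 CPM, replicate 2 of the male-labelled 2 hr group at 3601 CPM and replicate 2 of the male-labelled controls at 3780 CPM. Replicate 1 of the female-labelled 4 hr group was an exception, with a members' sum of 5075 CPM, above the 4411 CPM of that control, and a neuron sum of 6072 CPM. The Spearman correlation between the sums was -0.71 over the 24 libraries (Pearson's r of log10 values -0.92), and -0.63 (r -0.80) without the 2 libraries with the lowest neuron sums. It was -0.76 in the 12 female-labelled and -0.79 in the 12 male-labelled libraries, injured and control together. A list of 10 glia markers also varied inversely with the members' sum, with a Spearman correlation of -0.47 over the 24 libraries (r -0.79). Without the 2 libraries farthest on the glia axis it was -0.31 (r -0.44). It was -0.62 in the female-labelled and -0.64 in the male-labelled libraries. The glia sum was lowest in replicate 2 of the female-labelled 2 hr group, at 1114 CPM. In replicate 2 at 4 hr it was 1907 CPM, against a median of 1849 CPM. Gene by gene, 7 of 9 glia markers tested in the female-labelled 2 hr group had a log2FC above 0, with a median of 0.73. At an unadjusted p under 0.05 with a log2FC over 1, 2 of 9 were higher and 0 lower (6.93% of all genes higher). In the male-labelled 2 hr group 3 of 8 had a log2FC above 0, with a median of -0.14. All these sums are shares of the same library total.

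Fat body markers, 14 genes in the table, summed to 37787 CPM in replicate 2 of the female-labelled 2 hr group, and to 38678 CPM in replicate 1 of the 1 hr group, against a median of 7702 CPM. Of these, Yp1 was at 18692 and 22007 CPM in the same libraries and at 361 to 5075 CPM in the female-labelled libraries other than these 2. Yp2 was at 7817 and 9625 CPM and Yp3 at 9131 and 3554 CPM in these 2 libraries. The yolk protein transcripts thus made up most of both sums. Lsp2, another fat body product, was at 539 and 495 CPM in these 2 libraries, within a range of 392 to 1756 CPM over the female-labelled libraries. Of 9 fat body markers tested in the female-labelled 2 hr group, 5 had a log2FC above 0, with a median of 0.41. At an unadjusted p under 0.05 with a log2FC over 1, 3 of 9 were higher (6.93% of all genes). Replicate 2 at 4 hr, with the second highest Drs, had a fat body sum of 6070 CPM, below the median. The Spearman correlation with the members' sum was 0.33 over 24 libraries (r 0.66) and 0.13 (r 0.09) without the 2 highest. It was 0.65 (r 0.72) in the 12 female-labelled and -0.41 (r -0.69) in the 12 male-labelled libraries. For the 11 hemocyte markers it was 0.00 over 24. Photoreceptor markers were also higher in the female-labelled 2 hr group, in 6 of 14 genes at an unadjusted p under 0.05 with a log2FC over 1 (6.93% of all genes), with a median log2FC of 1.52. Their sums were 9285, 15618 and 14441 CPM in replicates 1, 2 and 3, against 9199.6, 4674 and 7109 CPM in the controls. In the male-labelled 2 hr group 3 of 14 photoreceptor markers passed the same rule (1.10% of all genes), with a median log2FC of 0.54. The male-labelled medians were 0.54 at 1 hr and 0.30 at 4 hr, where 0 of 14 passed (0.581% and 0.380%). Over the 24 libraries the correlation of the photoreceptor sum with the members' sum was -0.08 (r 0.38). The part of these tissues in the members' levels was not tested.

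**Figure D4:**
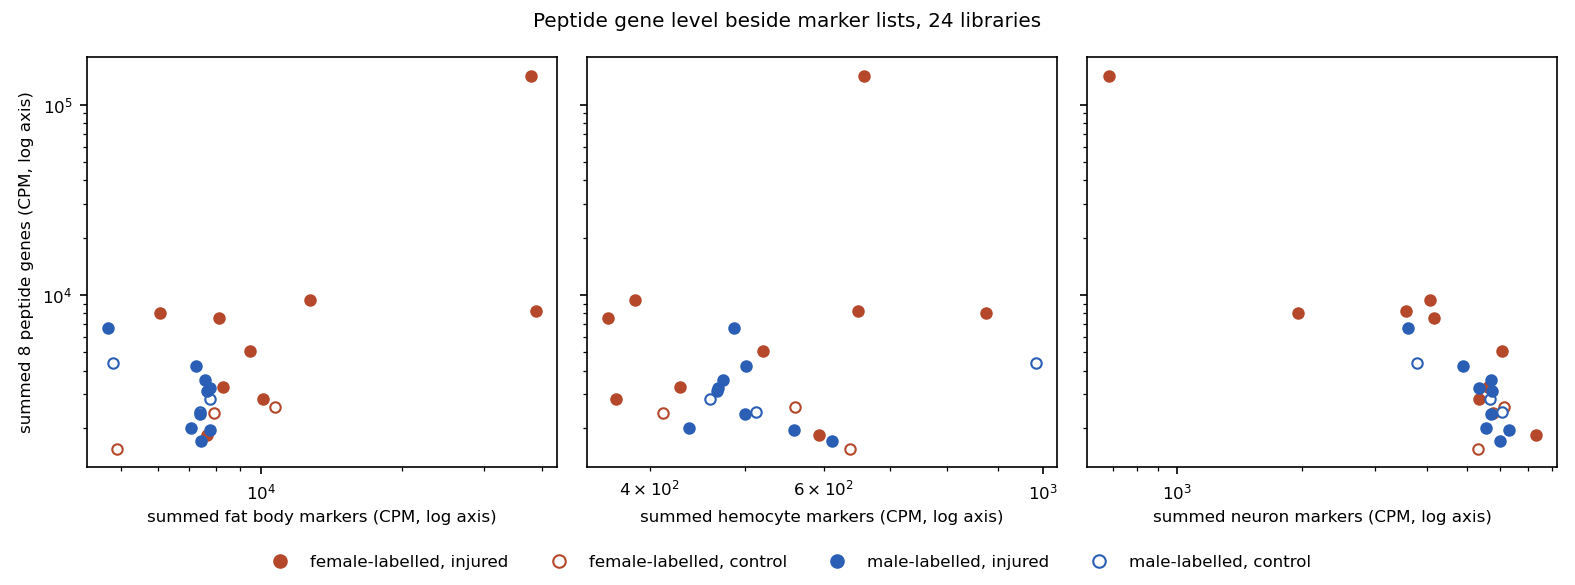
Summed level of the 8 members (vertical axis, CPM, log scale) against the summed level of fat body, hemocyte and neuron markers (horizontal axes, CPM, log scale), 1 point per library (open, control). Libraries with low neuron sums lie at the top, and the highest point is replicate 2 of the female-labelled 2 hr group, at 684 CPM of neuron markers.

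Other genes of the response were counted in lists of immune peptides, the Toll cascade and the Imd cascade. Of 11 other immune peptides tested in the female-labelled 2 hr group, 10 were higher at an unadjusted p under 0.05 with a log2FC over 1 (6.93% of all genes), with a median log2FC of 6.29, and 4 of 11 were at 4 hr (4.78%). CecA2 was at 10.3, 2342 and 44.8 CPM at 2 hr with 2 reads over the 3 controls. AttC, an attacin that acts on Gram-negative bacteria, was at 29.2, 8045 and 128 CPM, against 7.85, 2.41 and 15.3 CPM, and CecB was at 12.01, 1848 and 28.4 CPM with 1 read over the controls. Each of these 3 was above every control in all injured libraries, with replicate 2 the highest by far. AttC had 6 reads over the controls. Like Def, these 3 could be tested only because of injured libraries. Their place in these counts and in the median is therefore no independent support.

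In the Toll cascade 4 of 14 tested genes were higher at an unadjusted p under 0.05 with a log2FC over 1 at 2 hr (6.93% of all genes), with a median log2FC of 0.87. They include grass, a serine protease of the cascade, at 24.01, 269.9 and 50.01 CPM against 3.93, 0.804 and 0 CPM. With 2 reads over the controls, grass could be tested only because of injured libraries. Its place in this count is therefore no independent support. PGRP-SA, a receptor for peptidoglycan, was at 27.4, 877 and 62.7 CPM against 51.0, 4.02 and 30.6 CPM, and cact, the inhibitor of the Toll pathway's NF-kB factors, at 161, 927 and 137 CPM against 141, 125 and 138 CPM. Replicate 2 was again the highest in each, and PGRP-SA and cact overlapped their controls.

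In the Imd cascade 3 of 12 tested genes passed the same threshold (6.93% of all genes), with a median log2FC of 0.36. Rel, the NF-kB factor of that pathway, was at 60.04, 1314 and 102 CPM against 106, 32.2 and 138 CPM. PGRP-SB1, a secreted recognition protein, was at 53.2, 744 and 104 CPM against 43.2, 36.2 and 15.3 CPM, and Tab2, of the kinase complex, at 18.9, 34.8 and 21.6 CPM against 7.85, 0 and 0 CPM. With 2 reads over the controls, Tab2 could be tested only because of injured libraries. Its place among the genes that passed is therefore no independent support. None of the genes of the 3 lists was called after adjustment in the female-labelled 2 hr comparison (0, with 0% of all genes). At 4 hr in the female-labelled group 1 of 14 Toll and 0 of 12 Imd genes passed the unadjusted threshold (4.78% of all genes). In the male-labelled group at 1 hr 2 of 7 other immune peptides were higher, against 0.581% of all genes, and 0 of 11 Toll and 0 of 10 Imd genes were. At 2 hr 0 of 7, 0 of 11 and 0 of 10 were higher, against 1.10%, and 1 Toll gene was lower, against 0.671%. At 4 hr 0 of 7, 0 of 11 and 0 of 10 were higher, against 0.380%.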

How the data were processed

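Single-brain QuantSeq 3′ libraries were counted per gene by the authors. Their deposited counts, whole numbers with no scaling, cover 16995 genes in 24 libraries. The submitters' notes and the paper name CASAVA 1.8.2, STAR 2.4, the dm3 build and edgeR 3.22.3, and no strand setting for the counting. 6 deposited comparison tables (log2 fold change, average log2 level, likelihood ratio, p and adjusted p) were not used. Here counts were tested with edgeR 4.0.16 (R 4.3.3), quasi-likelihood test, TMM scaling and filterByExpr, 12 libraries per sex label or all 24 for label differences, Benjamini-Hochberg over all genes. A call needs an adjusted p under 0.05 and an absolute log2FC over 1. Alternatives were DESeq2 1.42.0, limma-voom 3.58.1, other scaling and filters, a replicate block and the omission of each library in turn. 2 further exclusions of libraries and the unadjusted and non-overlap counts were added after the data were seen. The fits were run on simulated data with 200 changed genes, in which no library stood apart. For the female-labelled libraries the simulated spread was smaller than in the data, so the simulation does not cover their high library. All 8 members are named, with the 3 listed genes of smallest p per pathway list at 2 hr in female-labelled brains and the 5 and 3 genes most like the members and Drs. Members and lists were chosen with earlier results of these data known. Same-numbered libraries deviated together (r above 0.1 in all 3 pairs) for male control and 2 hr (0.140 to 0.484), male 1 and 2 hr (0.127 to 0.382) and female 2 and 4 hr (0.120 to 0.572). Of these only male control and 2 hr were compared here, and the numbers pair them by that rule. In none of these pairs of groups did each library correlate best with the one of its own number. No 2 libraries were identical in 276 pairs. Counting intervals are at 95%. Sequences were not analysed here.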

Additional observations from a re-analysis of the deposited data

How the results depend on the processing

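Counts of members, out of those tested, depend on the fit. In the female-labelled 2 hr comparison 0 members passed the adjusted threshold by edgeR, but 3 did by DESeq2 (IM2 to IM4, while Dro, IM1 and Mtk had no adjusted p there, 0.439% of all genes), 8 without a filter on low counts (0.958%), 4 with all 24 libraries in one fit (Dro, IM1, IM3 and Mtk, 0.165%) and 0 to 6 when each library was left out (6 without replicate 1 of the 2 hr group, 0 to 0.288%). For the difference between labels at 2 hr these were 2 by DESeq2 (0.0732%), 6 without a filter (0.261%) and 0 to 1 over omissions (0 to 0.0501%). Without a filter 1 passed at 4 hr (0.131%) and 4 over all injured female-labelled libraries (0.262%). At an unadjusted p the 2 hr count of 8 became 5 by DESeq2 and by limma-voom, 3 without both low-roX1 libraries, 5 without these and replicate 1 of the 1 hr group, and 3 to 8 over omissions. The 4 hr count of 1 became 2 by DESeq2, 7 by limma-voom, 0 with library size alone, 6 without a filter, 0 with the replicate block, 4 with all 24 libraries in one fit, 7 under either exclusion and 0 to 2 over omissions. Over all times the count of 6 became 3 by limma-voom, with library size alone, with the replicate block and under either exclusion, and 1 to 7 over omissions. For the label difference, the 2 hr count of 7 became 0 and 1 under the exclusions and 1 to 8 over omissions. The 4 hr count of 3 became 6 by limma-voom, 0 with library size alone, 5 without a filter or with only the groups compared, 1 with the replicate block, 4 under the wider exclusion and 0 to 3 over omissions. With every library, members above every control were 4 of 8 at 2 hr (9.61% of all genes) and 6 of 8 at 4 hr (7.98%) in female-labelled brains. In male-labelled ones they were 3 of 7 at 1 hr (6.30%). For any gene, leaving out a library can only keep or create such a separation. Counts of separated members without a library are therefore not given. The replicate block changed no adjusted call. At an unadjusted p the share of all genes higher, over omissions and over the other alternatives, was 1.77 to 9.22% and 2.01 to 9.83% at 2 hr, 1.496 to 7.40% and 2.50 to 7.38% at 4 hr, and 1.66 to 5.94% and 1.38 to 6.94% over all times. For the label difference it was 1.63 to 10.7% and 2.14 to 7.65% at 2 hr, and 2.43 to 8.91% and 3.77 to 7.81% at 4 hr. The causes were not tested. Of 1528 single-member values under the alternatives 71 changed sign, none of them called. With 3 libraries per group, 1 library can decide a count, and at the shallowest depth Def could not be compared.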
